A study of Mus musculus with 6 samples.

Results

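Genes of glycolysis and of the response to low oxygen were followed in embryonic mouse eye tissue labelled as retinal pigment epithelium (RPE), in albino against pigmented embryos. The set held 32 genes, chosen by name for their place in these pathways. Of these, 30 had a probe set (a group of short probes for one transcript) that the platform annotation assigns to that gene only. A gene was represented by its brightest such probe set, and 27 genes reached the required mean log2 value of 5 over the 6 arrays, out of 12098 genes that did so in the whole series. Gpi1 and Eno1 were not analysed here, because the annotation used assigns no probe set to either of them alone.

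The albino group comprised 3 pools from embryos of a genotype labelled albino, and the control group 3 pools from embryos labelled pigmented, all at embryonic day 13.5. Each pool joined RPE tissue of 3 to 4 littermates and was hybridised to 1 array. No treatment is described for either group, and the labels name neither the mutated gene, the allele nor the strain. The protocol describes removal of cornea, lens, neural retina and surrounding tissue from the eyecup, whereas the sample descriptions speak of the whole eye region. The values are the authors' deposited log2 RMA values, in which 1 unit is a factor of 2 and a difference is relative to the other transcripts on the array.

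Glycolysis breaks glucose down to pyruvate in the cytoplasm, and several of its steps are served by isoforms made from different genes, some typical of muscle or brain. When oxygen is short, the factor HIF-1 (hypoxia-inducible factor), whose oxygen-sensitive subunit is encoded by Hif1a, escapes destruction and binds DNA at a short core sequence near its target genes. Its targets include many glycolytic genes as well as genes that slow mitochondrial respiration. In the mature eye the RPE takes glucose from the choroid through GLUT1, the product of Slc2a1, and passes it on to the photoreceptors.

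Levels of the RPE markers bore the label out in part. The mean over 10 RPE markers lay between 9.78 and 9.97 in albino pools and between 9.94 and 10.21 in pigmented pools, while Rpe65, the retinoid isomerase gene of mature RPE, was below the required mean. Markers of other tissues were also present. Skeletal muscle markers, 12 genes, averaged 9.24, 9.29 and 8.55 on albino arrays 1, 2 and 3, against 7.43, 7.08 and 8.05 on pigmented arrays 1, 2 and 3, and 12 of 12 were higher in albino pools. The mean differences of the other marker lists were -0.37 for neural retina, -0.12 for periocular mesenchyme, 0.07 for erythroid cells, 0.14 for macrophages and 0.01 for endothelium, and lens markers read 7.36, 7.43 and 4.81 in albino pools and 7.37, 7.28 and 7.49 in pigmented pools. In such bulk tissue fewer cells of a type and less RNA per cell cannot be told apart. The mean of 3 Y-linked genes was 7.47, 7.06 and 7.99 in albino pools and 7.39, 2.32 and 5.98 in pigmented pools. The arrays numbered 1 in both genotypes stood apart from the other 4. The bacterial hybridisation controls bioB, bioC and bioD, which are spiked into each sample, averaged 8.82 and 9.17 on the albino and pigmented arrays numbered 1, against 11.03 to 11.39 on the other arrays, a 4.66-fold gap.

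No member passed the test between the genotypes, and the differences were small. Albino minus pigmented differences ran from -0.23 for Slc2a1 to 0.43 for Egln3, with 18 of 27 members higher, 8 lower and Eno2 at 0.00. The median over the members was 0.08, and the median over all genes tested was 0.04, with 63.8% of all genes higher. On limma's moderated test with Benjamini-Hochberg adjustment over 23591 probe sets, 0 probe sets passed at 0.05 (0% of those tested), and 0 passed with the array number as a block (0%). The number of members higher in albino was 14 after median centring of the arrays and 16 after cyclic loess, where the share of all genes that were higher was 38.7% and 51.4%.

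Before adjustment, 1 of 27 members had a limma p under 0.05 (Egln3), against 4.79% of all genes. With the array number as a block, this was 6 of 27 against 16.9% of all genes. These were Egln3, Ankrd37, Bnip3, Ldha and Pfkm, higher in albino, and Slc2a1, lower. Single arrays moved most of these values: leaving out an array or a same-numbered pair gave 0.21 to 0.60 for Ankrd37, 0.13 to 0.39 for Bnip3, 0.11 to 0.37 for Ldha, 0.072 to 0.29 for Pfkm and -0.33 to -0.135 for Slc2a1, against 0.37 to 0.49 for Egln3. The lowest values of Bnip3, Ldha and Pfkm came without albino array 1 and their highest without pigmented array 1. Same-number differences were positive at all 3 numbers for 9 members, against 30.7% of all genes, and negative at all 3 for 5 members, against 13% of all genes. The other 13 members had mixed or zero differences. The median of the members' differences was 0.08, -0.01 and 0.11 at numbers 1, 2 and 3.

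**Figure D1:**
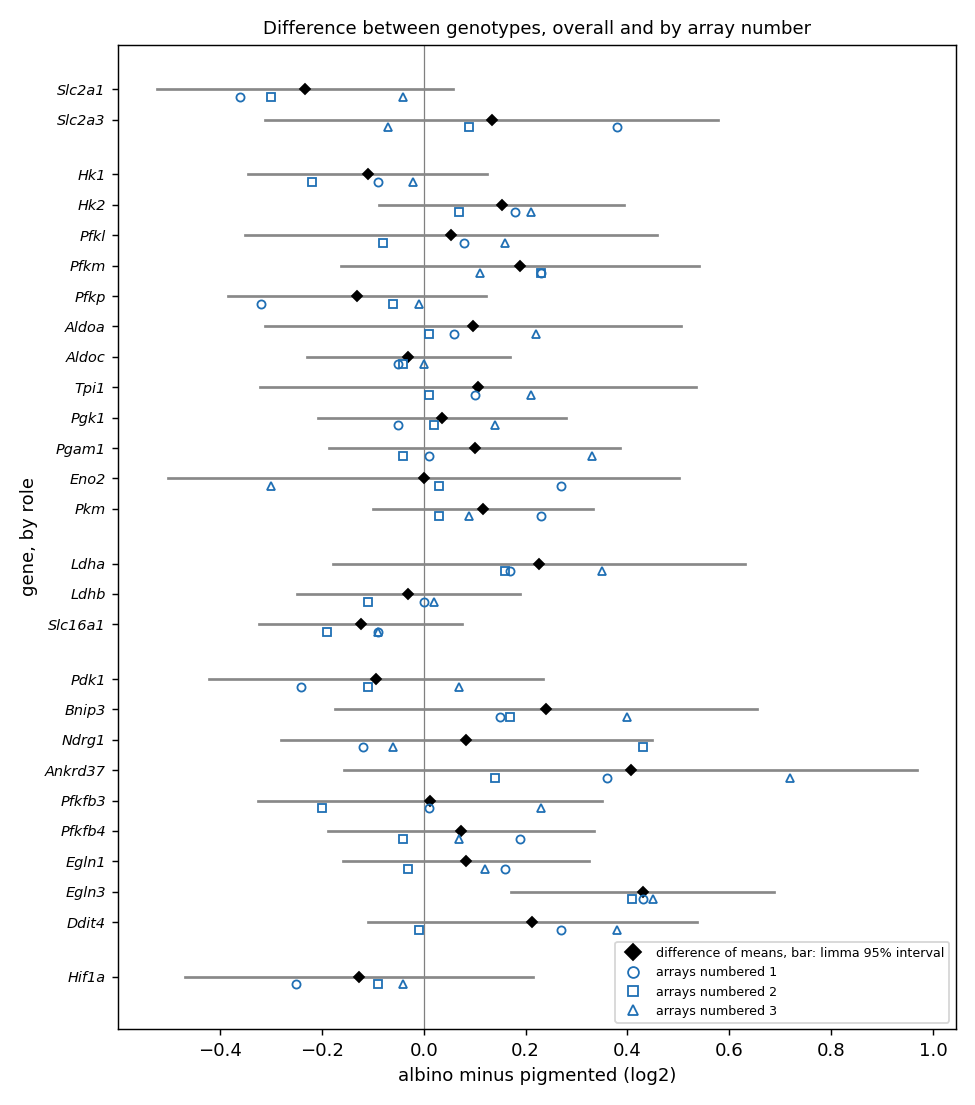
Albino minus pigmented difference (log2, horizontal axis) of each of the 27 tested genes, arranged by role down the page. Diamonds are differences of means with limma 95% confidence intervals, and open symbols are the differences between arrays of the same number. Only the interval of Egln3 lies wholly above 0, and no interval lies wholly below 0.

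Of 9 HIF response genes tested, 8 were higher in albino pools and Pdk1 was lower, with a median difference of 0.08, where 63.8% of all genes were higher, with a median of 0.04. Of the other members, 10 of 18 were higher, with a median of 0.045. None passed the adjusted test. The count of 8 was 6 after median centring, with a median of 0.01, and 7 after cyclic loess, with a median of 0.05, where 38.7% and 51.4% of all genes were higher, with medians of -0.03 and 0.0034. At array numbers 1, 2 and 3 the median of the 9 genes differed by 0.16, -0.01 and 0.23. The muscle marker means differed by 1.81, 2.21 and 0.50 at the same numbers. Number 3 had the smallest muscle difference and the largest HIF response difference, though numbers 2 and 3 were not told apart as pairs. The part of the muscle markers in these values was not tested.

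Egln3 encodes a prolyl hydroxylase that marks HIF subunits for destruction and is itself a HIF target. It read 6.90, 6.67 and 6.75 on albino arrays 1, 2 and 3, against 6.47, 6.26 and 6.30 on pigmented arrays 1, 2 and 3. Every albino array lay above every pigmented array. The 3 same-number differences were 0.43, 0.41 and 0.45, though numbers 2 and 3 were not told apart as pairs. The difference was 0.43 (SE 0.11, 95% confidence interval 0.17 to 0.69), or 1.35-fold, with a limma adjusted p = 0.728, and adjusted p = 0.192 with the array number as a block. A second, dimmer Egln3 probe set differed by only 0.05. It read 6.12, 5.16 and 4.87 in albino pools and 6.0, 5.05 and 4.95 in pigmented pools, so that it split the arrays by number and not by genotype. Only 2 members, Egln3 and Pkm, had albino arrays all above the pigmented ones, where 7.97% of all genes did so.

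Ankrd37, a short ankyrin-repeat protein gene that HIF-1 activates, read 6.53, 5.95 and 6.11 in albino pools and 6.17, 5.81 and 5.39 in pigmented pools. The groups overlapped, and the difference of 0.41 (SE 0.24, limma adjusted p = 0.999) rested most on array number 3, where it was 0.72. Bnip3, whose product sends mitochondria to autophagy, read 9.98, 9.55 and 9.76 in albino pools and 9.83, 9.38 and 9.36 in pigmented pools. It was higher in albino at each number, by 0.15, 0.17 and 0.40, within overlapping groups. Ddit4, which encodes the mTORC1 inhibitor REDD1, read 10.05, 9.85 and 9.84 in albino pools, against 9.78, 9.86 and 9.46 in pigmented pools, a difference of 0.21 (SE 0.13), with -0.01 at number 2 and 0.093 overall without pigmented array 3.

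The remaining response genes lay closer to 0. Egln1, the main oxygen-sensing hydroxylase gene, differed by 0.08 (SE 0.10). Pfkfb3 and Pfkfb4 make enzymes that set the level of an activator of phosphofructokinase, and differed by 0.01 (SE 0.14) and 0.07 (SE 0.11). Ndrg1, a stress-responsive gene, differed by 0.08 (SE 0.15), a mean of -0.12, 0.43 and -0.06 at the 3 numbers. Of its 3 other tested probe sets, 1 had the opposite sign, at -0.15. Pdk1, a pyruvate dehydrogenase kinase gene, read 8.88, 9.25 and 9.25 in albino pools and 9.12, 9.36 and 9.18 in pigmented pools. Its difference was -0.09 (SE 0.14). Its 2 other tested probe sets gave the opposite sign, 0.18 and 0.10.

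Car9, the carbonic anhydrase IX gene often used as a hypoxia marker, was dim on every array, at 4.0, 3.53 and 3.41 in albino pools and 4.34, 3.54 and 3.61 in pigmented pools. Adm, the adrenomedullin gene, stood at 3.90 to 4.37 in albino pools and 3.96 to 4.30 in pigmented pools. Both means were below 5, so neither gene was tested. Hif1a itself read 11.42, 11.18 and 11.23 in albino pools and 11.67, 11.27 and 11.27 in pigmented pools. On this brightest probe set Hif1a was lower in albino at each number, with a difference of -0.13 (SE 0.14), and the groups overlapped. Without pigmented array 1 that difference was 0.0067. The 2 other tested probe sets gave -0.04 and -0.0033, each with same-number differences of both signs. Hif1a RNA level does not report HIF activity, which is set mainly through the protein.

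**Figure D2:**
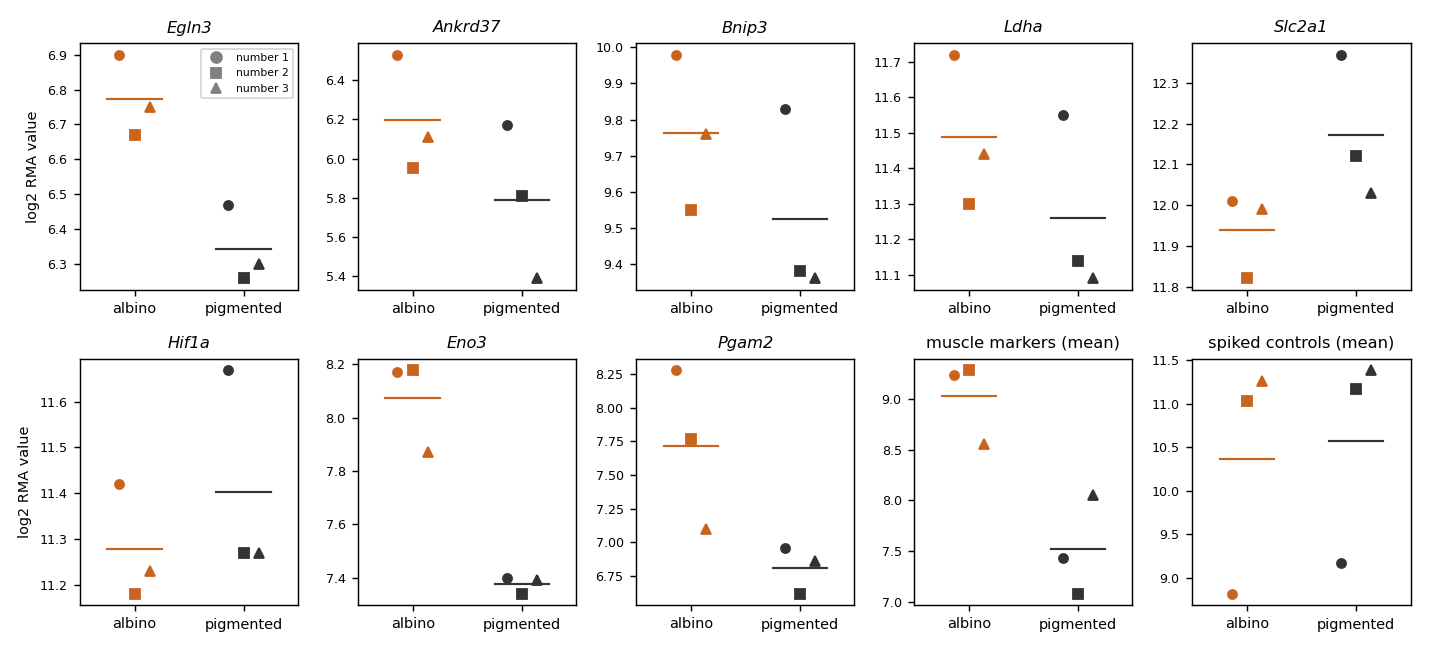
Log2 RMA values (vertical axes, each with its own range not starting at 0) on the 3 albino and 3 pigmented arrays for 6 members, the muscle isoform genes Eno3 and Pgam2, the mean of 12 muscle markers and the mean of 7 spiked control probe sets. Lines are group means. Egln3, Slc2a1, Eno3, Pgam2 and the muscle marker mean separate the genotypes, while the spiked controls are low on both arrays numbered 1 (8.82 and 9.17).

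Promoter sequences are shown for the 4 members with the highest differences and for Slc2a1, the lowest, because the core bound by HIF-1 is most often ACGTG. Each is the 250 bases before the RefSeq transcription start in build GRCm38.p6, 5′ to 3′ on the gene's strand, with ACGTG or its reverse complement in capitals. They lie at chr12:54203875-54204124 (minus strand) for Egln3, chr8:45999851-46000100 (minus) for Ankrd37, chr7:138909507-138909756 (minus) for Bnip3, chr7:46845554-46845803 (plus) for Ldha and chr4:119108495-119108744 (plus) for Slc2a1.
Egln3: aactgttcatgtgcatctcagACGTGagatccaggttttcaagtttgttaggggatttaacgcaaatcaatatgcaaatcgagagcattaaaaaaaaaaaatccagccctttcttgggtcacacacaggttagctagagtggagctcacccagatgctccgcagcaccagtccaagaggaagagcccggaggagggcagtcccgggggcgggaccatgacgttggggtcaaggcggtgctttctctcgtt
Ankrd37: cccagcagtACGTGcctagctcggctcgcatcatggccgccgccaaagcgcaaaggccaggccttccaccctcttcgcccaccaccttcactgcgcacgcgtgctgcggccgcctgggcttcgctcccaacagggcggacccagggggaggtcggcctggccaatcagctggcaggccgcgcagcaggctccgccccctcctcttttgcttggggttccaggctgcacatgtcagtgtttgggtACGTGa
Bnip3: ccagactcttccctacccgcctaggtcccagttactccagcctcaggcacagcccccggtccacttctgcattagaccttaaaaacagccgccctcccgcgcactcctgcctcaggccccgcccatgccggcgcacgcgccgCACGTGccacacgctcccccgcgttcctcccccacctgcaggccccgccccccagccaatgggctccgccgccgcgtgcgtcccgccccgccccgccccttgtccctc
Ldha: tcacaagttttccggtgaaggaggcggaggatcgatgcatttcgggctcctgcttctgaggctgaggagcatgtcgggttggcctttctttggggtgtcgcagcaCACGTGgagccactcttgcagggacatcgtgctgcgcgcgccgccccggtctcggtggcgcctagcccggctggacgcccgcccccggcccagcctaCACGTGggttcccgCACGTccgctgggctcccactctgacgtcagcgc
Slc2a1: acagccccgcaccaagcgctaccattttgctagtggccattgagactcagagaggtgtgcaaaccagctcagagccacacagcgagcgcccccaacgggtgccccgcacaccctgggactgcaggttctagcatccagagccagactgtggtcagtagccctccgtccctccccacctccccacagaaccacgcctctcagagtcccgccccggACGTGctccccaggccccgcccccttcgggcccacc
The core matched 1 time in Egln3, 2 times in Ankrd37, 2 times in Bnip3, 5 times in Ldha and 1 time in Slc2a1. In Bnip3 and Ldha some matches form CACGTG, which reads the same on both strands and so holds the core on each. CACGTG is also the E-box bound by other factors.

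The core was found in at least 1 listed promoter of 16 of the 25 tested members with a promoter in the table (64%), against 25.1% of 9763 tested genes. Over single promoters of the same length, 16.6% of 32851 held it. The share was 6 of 8 for HIF response genes and 6 of 12 for glycolytic enzymes. With each gene given the highest GC content among its listed promoters, the median was 64% in the members and 61.6% in all tested genes. Genes with several listed promoters had more chances of a match. Members with the core had a median genotype difference of 0.11 and members without it -0.03, while Slc2a1, Slc16a1 and Hif1a held the core and were lower in albino. The same split was not made over all genes tested, so these medians have no background, and their gap was not tested. A match is a run of letters, not a measured binding site, and many of these genes were put on the list as known HIF targets.

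The glucose transporter genes had differences of opposite sign, neither past the threshold. Slc2a1, which encodes GLUT1, read 12.01, 11.82 and 11.99 on albino arrays 1, 2 and 3, against 12.37, 12.12 and 12.03 on pigmented arrays 1, 2 and 3. All albino arrays lay below all pigmented arrays. The difference was -0.23 (SE 0.12, limma adjusted p = 0.999), and the other 2 probe sets gave -0.20 and -0.08. Albino arrays lay wholly below pigmented ones for 3 members, Slc2a1, Slc16a1 and Pfkp, where 3.38% of all genes did so. RPE markers, of which 0 of 10 were higher in albino, differed by -0.24, -0.27 and -0.041 at numbers 1, 2 and 3, beside -0.36, -0.30 and -0.04 for Slc2a1. The part of RPE content in the Slc2a1 value was not tested. Slc2a3, the gene of the high-affinity transporter GLUT3, read 9.91, 9.38 and 9.25 in albino pools and 9.53, 9.29 and 9.32 in pigmented pools, a difference of 0.13 (SE 0.19) that turned to -0.065 without albino array 1.

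Of 12 glycolytic enzyme genes tested, 8 were higher in albino, 3 lower and 1 equal, with a median of 0.08 and a range of -0.13 to 0.19. The share higher, 66.7%, was close to the 63.8% of all genes. The number higher was 6 after median centring and 7 after cyclic loess, where all genes stood at 38.7% and 51.4%. It was 4 with the mean of the Y-linked genes as a covariate, a fit in which the share of all genes was not counted. The hexokinase genes, which start glucose use, differed in sign on their brightest probe sets. Hk2, the isoform that HIF and insulin raise, read 8.43, 8.20 and 8.33 in albino pools and 8.25, 8.13 and 8.12 in pigmented pools, a difference of 0.15 (SE 0.10). Hk1, the widely expressed isoform, differed by -0.11 (SE 0.10), and its dimmer probe set, below the required mean, gave 0.47.

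The 3 phosphofructokinase isoforms also differed in sign. Pfkm, the muscle-type gene, read 9.03, 8.67 and 8.68 in albino pools and 8.80, 8.44 and 8.57 in pigmented pools, higher at each number, by 0.19 (SE 0.15) on average. Pfkl, the liver type, differed by 0.05 (SE 0.17) and turned to -0.02 after median centring and -0.0060 after cyclic loess. Pfkp, the platelet type, read 6.29, 6.31 and 6.31 in albino pools and 6.61, 6.37 and 6.32 in pigmented pools, a difference of -0.13 (SE 0.11) made mostly by pigmented array 1.

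Further down the pathway the differences were small. Aldoa and Aldoc encode aldolases, the first abundant in muscle and the second in brain, and differed by 0.10 (SE 0.17) and -0.03 (SE 0.08). Of the 4 other tested Aldoa probe sets, 1 had the opposite sign, at -0.12. Tpi1, the triosephosphate isomerase gene, differed by 0.11 (SE 0.18) and Pgk1, an X-linked kinase gene of the first ATP-yielding step, by 0.04 (SE 0.10), or -0.037 after median centring. Pgam1, the phosphoglycerate mutase gene, differed by 0.10 (SE 0.12), most of it from a difference of 0.33 at number 3. The neuronal enolase gene Eno2 had the same mean in both genotypes (5.56) with opposite differences of 0.27 and -0.30 at numbers 1 and 3. Pkm, the pyruvate kinase gene, read 10.50, 10.31 and 10.39 in albino pools and 10.27, 10.28 and 10.30 in pigmented pools. Its albino arrays all lay above its pigmented arrays, with a difference of 0.12 (SE 0.09).

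On their brightest probe sets the lactate genes tested differed in sign, none past the threshold. Ldha, whose subunit favours lactate production and is a HIF target, read 11.72, 11.30 and 11.44 in albino pools and 11.55, 11.14 and 11.09 in pigmented pools. It was higher in albino at each number, by 0.17, 0.16 and 0.35, but the group ranges overlapped and the difference of 0.23 (SE 0.17, 95% confidence interval -0.18 to 0.63) did not pass. Ldhb, whose subunit favours the use of lactate, differed by -0.03 (SE 0.09), and its 3 other probe sets gave 0.09, 0.12 and 0.11. Slc16a1, which encodes the lactate carrier MCT1, read 9.74, 9.73 and 9.73 in albino pools and 9.83, 9.92 and 9.82 in pigmented pools, a difference of -0.12 (SE 0.08) with no overlap between the groups. Slc16a3, the gene of the lactate exporter MCT4, was below the required mean at 3.56 to 3.96 in albino pools and 3.60 to 3.95 in pigmented pools.

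**Figure D3:**
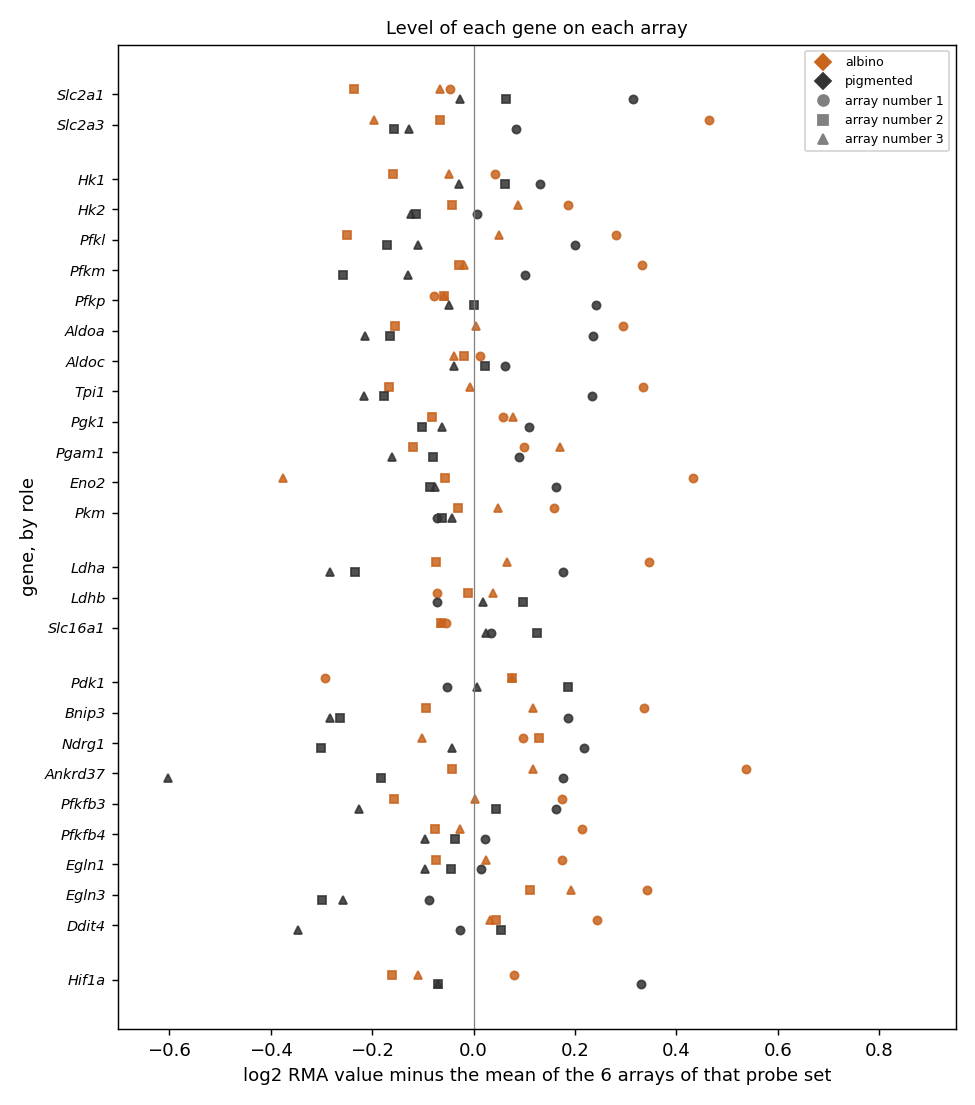
Log2 RMA value of each of the 27 tested genes on each array, minus the mean of its probe set over the 6 arrays (horizontal axis), with genes by role down the page. Colours give the genotype and symbols the array number. Circles, the arrays numbered 1, lie to the right for most genes, and Egln3 and Slc2a1 are among the few whose colours do not overlap.

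No gene of a wider list for either pathway passed the adjusted genotype test. Among further glycolysis and pyruvate genes, 17 of 25 tested (68%) were higher in albino, close to the 63.8% of all genes, with a median of 0.10. The smallest p-values belonged to Eno3, Mpc1 and Pgam2. Eno3, the muscle enolase gene, read 8.17, 8.18 and 7.87 in albino pools and 7.40, 7.34 and 7.39 in pigmented pools, a difference of 0.70 (SE 0.11, limma adjusted p = 0.500). Pgam2, the muscle phosphoglycerate mutase gene, read 8.28, 7.77 and 7.10 in albino pools and 6.96, 6.62 and 6.86 in pigmented pools, a difference of 0.90 (SE 0.29). Both separated the genotypes completely, and both had their smallest same-number difference (0.48 and 0.24) at number 3, as the muscle markers did (0.50). Here too numbers 2 and 3 were not told apart as pairs. The part of muscle content in the Eno3 and Pgam2 values was not tested. The muscle marker genes with the smallest p were Myf5, Myog and Mylpf, at 1.67 (SE 0.25), 1.71 (SE 0.29) and 1.78 (SE 0.32). Mpc1, a subunit gene of the mitochondrial pyruvate carrier, differed by 0.27 (SE 0.09), and by 0.35, 0.23 and 0.23 at numbers 1, 2 and 3.

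In a list of further HIF pathway genes, 23 of 30 tested genes (76.7%) were higher in albino, with a median of 0.09, where 63.8% of all genes were higher. Ak4, a mitochondrial adenylate kinase gene and HIF target, read 7.51, 7.28 and 7.31 in albino pools and 7.13, 6.89 and 6.79 in pigmented pools, a difference of 0.43 (SE 0.13). Cited2, whose product competes with HIF-1 for the coactivator p300, differed by 0.31 (SE 0.10), with same-number differences of 0.31, 0.30 and 0.31. P4ha2, a collagen prolyl hydroxylase gene, differed by 0.27 (SE 0.13). Unadjusted limma p-values were under 0.05 for 2 of the 30, against 4.79% of all genes. With the array number as a block they were under 0.05 for 10 of the 30, all higher in albino. Over all 12098 genes the share was 16.9% in both directions together, with 1373 genes higher and 670 lower. Neither wider list was recounted after median centring or cyclic loess. The partners and regulators of HIF lay near 0, with Epas1 (HIF-2α) at -0.10 (SE 0.12), Arnt (HIF-1β) at -0.09 (SE 0.16) and Vhl, the gene of the ligase subunit that destroys HIF, at 0.04 (SE 0.10), or -0.03 after median centring. Vegfa, the vascular growth factor gene, differed by -0.03 (SE 0.24). Gapdh had no usable probe set of its own, and the mean of its 3 control probe sets was 12.20, 11.90 and 11.99 in albino pools and 11.85, 11.95 and 11.84 in pigmented pools.

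**Figure D4:**
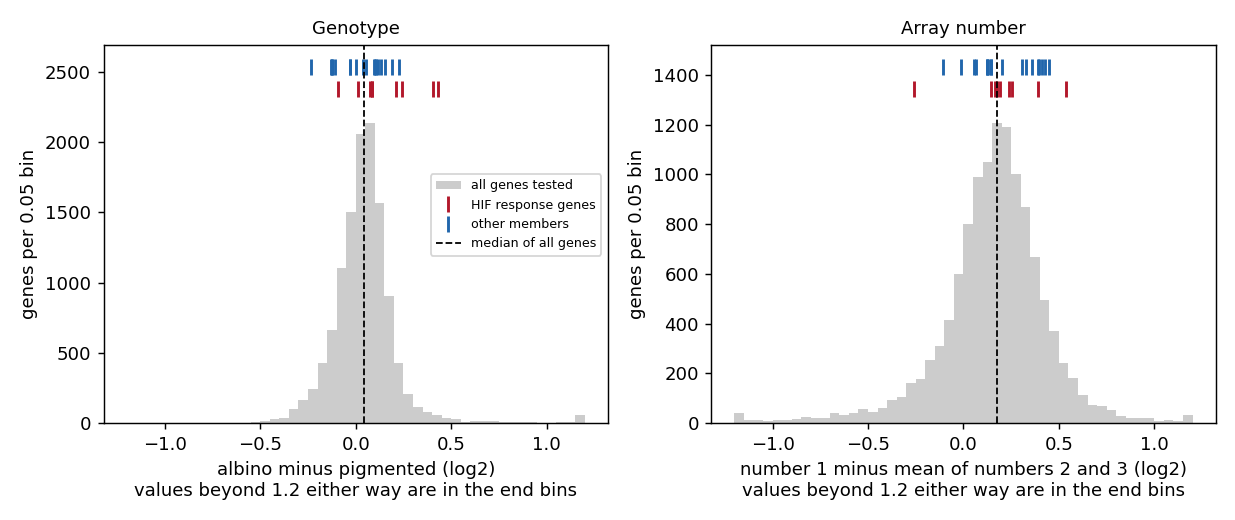
Histograms of the albino minus pigmented difference (left) and of the difference between arrays numbered 1 and the mean of numbers 2 and 3 (right) over 12098 genes, in log2 units, with values beyond the axis range in the end bins. Coloured ticks are the members. The members' medians are 0.08 and 0.19, and the dashed medians of all genes are 0.04 and 0.18.

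Glycolytic genes were among those that passed a test of array number. The labels number the arrays 1 to 3 in both genotypes without saying what a number shares. An F test of the number in a limma fit with genotype called 6 of 27 members (22.2%), against 27.8% of all genes. All 6 were highest at number 1, so that the members called with number 1 highest were also 22.2%, against 23.5% of all genes. They were Tpi1, Aldoa, Ldha, Bnip3, Pfkl and Pfkm, higher at number 1 than at the mean of numbers 2 and 3 by 0.43, 0.40, 0.39, 0.39, 0.36 and 0.33, with adjusted p from 0.0246 for Tpi1 to 0.0381 for Bnip3. Number 1 was highest for 24 of 27 members, but also for 74% of all genes, and the members' median of 0.19 was close to the 0.18 of all genes. None of the 6 passed after median centring or cyclic loess, which took the median of all genes to 0.10 and 0.03. Of all 12098 genes, 3363 were called before these scalings, 2109 after median centring and 1725 after cyclic loess. The calls of the 6 members were also lost when any one array was left out, when 1 residual degree of freedom is left and 0 probe sets passed.

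Some further genes passed the array number test under both scalings, in both directions, though none of them passed when any one array was left out. Plod2, a collagen lysyl hydroxylase gene and HIF target, read 7.49, 8.43 and 8.21 in albino pools and 6.86, 8.01 and 7.97 in pigmented pools, a difference of -0.98 between number 1 and the mean of the others (limma adjusted p = 0.00785). Angptl4 and Ppp1r3c, a lipase inhibitor gene and a glycogen-targeting gene, were higher at number 1 by 0.72 and 0.60, and so were Slc16a8, the RPE lactate carrier gene (0.71), and the hexokinase-like gene Hkdc1 (0.49). Pdk3, a further pyruvate dehydrogenase kinase gene, was higher by 0.34 but not past the threshold after either scaling. Vegfa differed by -0.59 (limma adjusted p = 0.0159), which was not examined under the other scalings. Among cell type markers, Cx3cr1 of macrophages, Atoh7 of the neural retina and Col1a1 of connective tissue had the smallest p, at -0.77, -0.63 and 0.67. The spiked controls differed by -2.22 and the 3′ minus 5′ difference of the beta-actin control was larger there by 0.27, while the part of hybridisation or RNA quality in the number 1 values was not tested.

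Probe sets of the same gene could disagree on array number. Between number 1 and the mean of numbers 2 and 3 the brightest Pdk1 probe set differed by -0.26, and its other 2 tested probe sets by 0.44 and 0.33. For Ldhb the brightest probe set gave -0.11 and the other 3 gave 0.33, 0.43 and 0.24. The dimmer Egln3 probe set was higher at number 1 by 1.05 (adjusted p = 0.00418), against 0.19 for the brighter one. Of the 12 members with more than 1 tested probe set, 4 held probe sets of opposite sign on genotype and 4 on array number.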

How the data were processed

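RNA from 6 pools was measured on Affymetrix arrays, from 100 ng of total RNA by a kit that primes at the 3′ end, per the labels' protocols. The deposited values are log2 values made with Affymetrix Expression Console 1.1 and RMA, per the submitters' processing notes. The platform annotation gave the gene names of probe sets (34945 with 1 gene, 932 with several, 9160 with none), and 64 control probe sets were left out.

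Probe sets with a mean of at least 5 over the 6 arrays were kept, 23591 in all. The genotype difference, albino minus pigmented, was fitted by limma 3.58.1 (R 4.3.3, lmFit then eBayes, two-sided). P-values were adjusted by Benjamini-Hochberg across the 23591 probe sets, with a threshold of 0.05. Array number was tested by limma's F test in a fit with genotype. Each array is a separate pool, and with 3 against 3 the smallest exact two-sided p is 0.1, so single values were not tested that way. The number of arrays limits the precision.

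The members and the gene lists were chosen with earlier results of these data known. Every member with a value is named. Of each further list (glycolysis and pyruvate, HIF pathway, cell types) the 3 genes with the smallest p for genotype and the 3 for array number are named, plus Gapdh, Vegfa, Epas1, Arnt and Vhl. The labels number the arrays 1 to 3 in each genotype. Deviations from the genotype means correlated at 0.863, 0.687 and 0.448 between arrays of the same number, so the numbers were treated as pairs on that basis, from the data and not the labels, although numbers 2 and 3 were not told apart: albino array 2 correlated at 0.693 with pigmented array 3, and albino array 3 at 0.546 with pigmented array 2. Promoters are RefSeq's, build GRCm38.p6. The fits were tested on simulated data. Alternatives covered scaling, the filter on dim probe sets, averaging of probe sets, the array number as a block, a Y-linked covariate and leaving out arrays.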

Additional observations from a re-analysis of the deposited data

How the results depend on the processing

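No probe set passed for genotype with or without the array number as a replicate block (0 and 0). At an unadjusted limma p under 0.05 there were 1104 probe sets without and 4243 with the block. The number of members with that p was 1 without and 6 with it, and no adjusted call changed. The members' median difference, 0.08, was 0.01 after median centring and 0.0097 with the Y-linked covariate, which left 14 of 27 members higher. With that covariate 7 of 9 HIF response genes and 4 of 12 glycolytic enzymes were higher, with medians of 0.06 and -0.04. The share of all genes higher was not counted in that fit. Leaving out arrays gave -0.0017 to 0.14, the lowest without albino array 1, where 13 of 27 members were higher in albino. The array number test passed 7426 probe sets, 4847 after cyclic loess, 13296 with dim probe sets kept, and 4310 genes when probe sets were averaged. Of 12098 genes it called 3363, with 2109 after median centring and 1725 after cyclic loess. It called 6 members, and 0 after median centring, 1 after cyclic loess (Pdk1, not among the 6), 10 with averaged probe sets and 3 without a genotype term. The probe set and member counts were 0 to 0 when any single array was left out, which leaves 1 residual degree of freedom. Median centring turned Pfkl to -0.02, Pgk1 to -0.037, Pfkfb3 to -0.06 and Vhl to -0.03. Cyclic loess turned Pfkl to -0.0060, Pfkfb3 to -0.018 and Vhl to -0.0050. Averaged probe sets turned Hk1 to 0.18, Pfkl to -0.051, Aldoc to 0.02, Ldhb to 0.071, Pdk1 to 0.098 and Pfkfb3 to -0.022. The averages took in probe sets below the required mean. For Hk1, Pfkl, Aldoc and Pfkfb3 only such a dim probe set had the sign opposite to the brightest one. Leaving out arrays turned the sign of these genes, with ranges of -0.065 to 0.265 for Slc2a3, -0.073 to 0.19 for Pfkl, -0.027 to 0.24 for Aldoa, -0.033 to 0.25 for Tpi1, -0.015 to 0.10 for Pgk1, -0.015 to 0.185 for Pgam1, -0.073 to 0.012 for Ldhb, -0.175 to 0.03 for Pdk1, -0.09 to 0.21 for Ndrg1, -0.097 to 0.12 for Pfkfb3, -0.015 to 0.13 for Pfkfb4, -0.20 to 0.0067 for Hif1a, -0.25 to 0.14 for Vegfa, -0.22 to 0.005 for Arnt and -0.01 to 0.12 for Vhl. Eno2, equal in both genotypes, took values of -0.22 to 0.19. Without a change of sign, Hk1 ran from -0.16 to -0.055, Hk2 from 0.098 to 0.21, Pfkp from -0.19 to -0.035, Aldoc from -0.057 to -0.0067, Pkm from 0.06 to 0.16, Egln1 from 0.017 to 0.14 and Ddit4 from 0.093 to 0.325. The causes of these changes were not tested. Signal near the background limits what can be said of Car9, Adm and Slc16a3.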
